A study of Mus musculus with 12 samples.

Results

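The genes described here are 10 of the protein-coding genes of the mouse mitochondrial genome, mt-Nd1, mt-Nd2, mt-Nd4, mt-Nd5, mt-Nd6, mt-Cytb, mt-Co1, mt-Co2, mt-Co3 and mt-Atp6. They were taken by symbol from the deposited identifier table, and are 10 of 36047 genes in it and 10 of the 13 protein-coding genes of chromosome M. The other 3 coding genes, mt-Nd3, mt-Nd4l and mt-Atp8, are given beside them. The study sequenced polyadenylated RNA from dissected cortex of WT and Gde2KO mice, 3 libraries per genotype at 4 months and 3 at 19 months, 12 in all. Gde2KO mice (Gde2-/-) carry a constitutive null allele of Gde2, listed as Gdpd5, so any tissue is affected, and Gde2 encodes GDE2, a membrane enzyme that cleaves the anchor of glycosylphosphatidylinositol-linked proteins at the cell surface. For WT mice the labels name no engineered allele, and for none of the 12 libraries do they name a drug or virus. Male and female mice were used, with the sex of each library not given in the sources used here. The question for these genes is whether their level differed between genotypes at either age, or between ages. The tissue is bulk, so that fewer mitochondria or fewer cells of a type and less RNA per mitochondrion or cell cannot be told apart.

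Mitochondrial DNA is a circle that is transcribed from both strands as long precursors, and most messenger RNAs are released when the transfer RNAs between them are cut out. The products are core subunits of the respiratory chain, which pumps protons across the inner membrane, and of the ATP synthase, which uses the gradient. All other subunits are encoded in the nucleus, so every complex but complex II is built from both genomes, and cortical neurons depend heavily on this ATP supply. Mitochondrial messages carry short poly(A) tails, and mt-Nd6, the light-strand message, is generally described as lacking one, so capture by oligo(dT) beads need not be equal between members.

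In the GENCODE vM21 annotation (GRCm38), each member is a single uninterrupted exon. Of the complex I genes, mt-Nd1 lies at M:2751-3707, mt-Nd2 at M:3914-4951, mt-Nd4 at M:10167-11544, mt-Nd5 at M:11742-13565 and mt-Nd6 at M:13552-14070 on the opposite strand. mt-Cytb of complex III lies at M:14145-15288. The complex IV genes lie at M:5328-6872 (mt-Co1), M:7013-7696 (mt-Co2) and M:8607-9390 (mt-Co3), and mt-Atp6 of ATP synthase at M:7927-8607. Neighbours overlap by 43 bases at mt-Atp8 and mt-Atp6, by 1 base at mt-Atp6 and mt-Co3, by 7 bases at mt-Nd4l and mt-Nd4, and by 14 bases at mt-Nd5 and mt-Nd6, which face each other. The library kit named in the labels does not mark strand, so reads from the mt-Nd5 and mt-Nd6 overlap cannot be told apart.

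The 3′ ends of 5 members are shown because genes overlap or stop without a whole stop codon there. The last 12 bases are given 5′ to 3′ on the coding strand, with the stop codon, or the single base past the last whole codon, in capitals. mt-Co3, mt-Nd4 and mt-Cytb end in a lone T, which the poly(A) tail is known to complete to a stop codon, and the ends of mt-Nd5 and mt-Nd6 lie on each other's opposite strand.

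mt-Co3: gatgaggatctT

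mt-Nd4: gcctgacaataT

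mt-Cytb: aattatatccaT

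mt-Nd5: aatctcgagTAA

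mt-Nd6: actcgagatTAA

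The deposited values are estimated counts per transcript divided by a size factor per library. They were summed here per gene, and the sums are called normalized counts below. The estimated depth was 46434259 to 59728495 reads per library at 4 months and 36915256 to 44604732 in 4 of the 19-month libraries, against 6734475 in 19-month WT A and 3707928 in 19-month Gde2KO A. The 19-month columns carry no replicate number and are called A, B and C in column order. The members drew 147878 to 5142549 reads per library, and mt-Nd6, the member with fewest, had 1534 reads in the shallowest library, a counting error of 2.55%, so counting error is small beside the spread between libraries. Gdpd5 had 684, 702 and 1199 normalized counts in the 4-month WT libraries and 417, 585 and 403 in the Gde2KO libraries (log2 fold change -0.85, adjusted p = 0.463), so reads of the targeted gene remain and the groups do not overlap. At 19 months it had 1065, 1129 and 952 in WT and 441, 456 and 560 in Gde2KO (log2 fold change -1.11, adjusted p = 0.0111), and it was called. Markers of neurons, astrocytes, microglia, oligodendrocytes, endothelial cells, striatum, hippocampus and blood were above 0 in all 12 libraries (all 5 or 6 genes of each list), and 4 of 5 choroid plexus markers were. Markers of neighbouring regions were uneven at both ages. At 4 months the 5 striatal markers summed to 2261 to 31377 normalized counts in WT and 16592 to 42458 in Gde2KO. The 6 hippocampal markers summed to 8977 to 32650 in WT and 7337 to 9892 in Gde2KO. At 19 months the striatal sums were 4246 to 6374 in WT and 5833 to 12170.5 in Gde2KO. The hippocampal sums at 19 months were 6117 to 6375 in WT and 7562 to 8647 in Gde2KO, without overlap. Their part in the values below was not tested.

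Per length, on the TPM scale as deposited, the complex IV messages stood highest and the complex I messages lowest. In 4-month WT cortex mt-Co2 had 22404 ± 1611 TPM and mt-Co1 22171 ± 1991 (SD, n = 3), and their libraries overlapped. mt-Co3 followed with 16666 ± 759 and mt-Atp6 with 14050 ± 1052, each separated from the gene above it in every library. mt-Cytb had 12311 ± 1248 TPM and mt-Nd1 11496 ± 953, and mt-Atp6, mt-Cytb and mt-Nd1 overlapped with their neighbours in this order. mt-Nd4 (7276 ± 575 TPM) and mt-Nd2 (6430 ± 366) were each separated from the members next in order, and mt-Nd6 (4798 ± 301) and mt-Nd5 (4424 ± 397) overlapped at the bottom, 5.06-fold below mt-Co2. At 19 months mt-Co1 came first in both genotypes, with 19184 ± 783 TPM in WT and 18907 ± 872 in Gde2KO, and mt-Nd5 and mt-Nd6 again overlapped at the bottom.

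The 10 members together took 5.14%, 4.98% and 5.83% of the normalized counts of the 4-month WT libraries and 5.43%, 5.73% and 8.61% of the 4-month Gde2KO libraries. Gde2KO library 3 stood apart, and the other 5 libraries of that age lay between 4.98% and 5.83%. At 19 months the share was 4.55%, 4.26% and 4.40% in WT and 3.99%, 4.20% and 4.39% in Gde2KO, and all 6 libraries lay below all 6 of 4 months. The group means were 5.32% ± 0.453, 6.59% ± 1.76, 4.40% ± 0.149 and 4.20% ± 0.203 (SD, n = 3), in the order 4-month WT, 4-month Gde2KO, 19-month WT and 19-month Gde2KO. Without library 3, the 4-month Gde2KO mean was 5.58%.

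**Figure D1:**
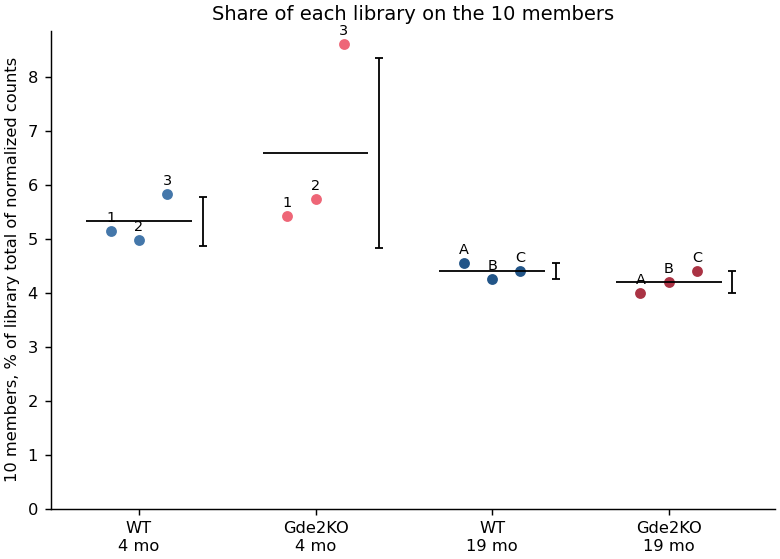
Share of each library's normalized counts on the 10 members (y axis, percent) in the 4 groups, 1 labelled point per library, with the mean as a line and the SD as a bar. The 4-month Gde2KO library 3 is at 8.61% and the other 5 libraries of that age lie between 4.98% and 5.83%.

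At 4 months the 10 members had higher mean log2 values in Gde2KO than in WT, and none passed the test. Their log2 fold changes ran from 0.19 (mt-Nd5) to 0.59 (mt-Co3) with a median of 0.41. Over the 19035 genes tested the median was 0.11, and 63.2% were positive. All 10 passed the filter on low values. The adjusted p-values (limma) lay between 0.494 and 0.673. Of the members 0 of 10 were called (adjusted p under 0.1 and a log2 change above 0.721), against 0.126% of all genes tested. At an unadjusted p under 0.05 were 0 members and 2025 of the 19035 genes. Gde2KO libraries lay wholly above WT libraries for 3 members, mt-Co3, mt-Atp6 and mt-Nd6, against 11.1% of all genes tested.

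The complex IV gene mt-Co3, which encodes a core subunit of cytochrome c oxidase, had 166208, 152943 and 171150 normalized counts in WT and 178616, 175699 and 476817 in Gde2KO libraries 1 to 3. Its log2 fold change was 0.59 ± 0.38 SE (adjusted p = 0.516). Gde2KO libraries 1 and 2 lay just above the highest WT value, and library 3 lay far above all others. mt-Co1, the catalytic subunit, had 534090, 494763 and 591618 in WT and 617199, 566245 and 1124000 in Gde2KO. mt-Co2, which receives electrons from cytochrome c, had 177860, 164392 and 194474 in WT and 202762, 177908 and 310209 in Gde2KO. For both, Gde2KO library 2 lay inside the WT range, library 1 just above it and library 3 far above.

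mt-Atp6, the proton channel subunit of ATP synthase, had 112439, 101125 and 120791 normalized counts in WT and 128803, 124815 and 284924 in Gde2KO (log2 fold change 0.58 ± 0.33, adjusted p = 0.494). The libraries did not overlap, and library 3 stood apart again. mt-Cytb, the catalytic core of complex III, had 200903, 185970 and 228152 in WT and 234135, 207455 and 396720 in Gde2KO, with overlap.

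Of the 5 complex I genes, mt-Nd6 had 25794, 22418 and 26398 normalized counts in WT and 27348, 26466 and 51934 in Gde2KO (log2 fold change 0.43 ± 0.26). The groups did not overlap, although the lowest Gde2KO value lay only just above the highest WT value. mt-Nd1, a membrane subunit next to the quinone site, had 146327, 139370 and 164801 in WT and 167514, 158225 and 331859 in Gde2KO. mt-Nd2, mt-Nd4 and mt-Nd5, the antiporter-like proton-pumping subunits, had the smallest log2 fold changes, 0.26, 0.26 and 0.19, and their groups overlapped.

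**Figure D2:**
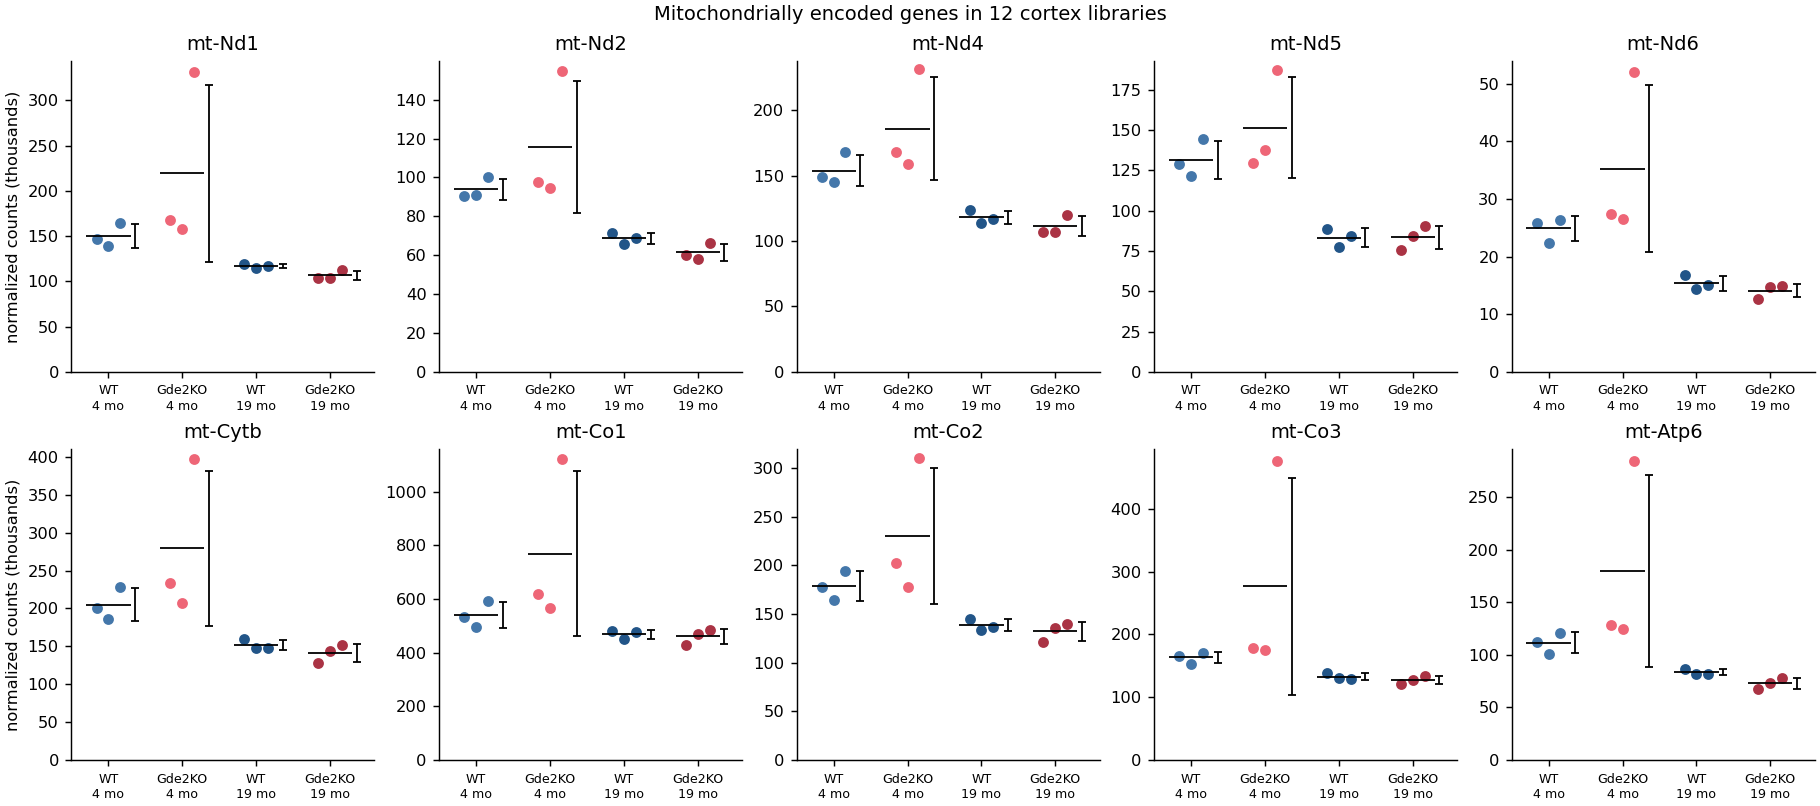
Normalized counts, in units of 1000 (y axis, from 0), of each of the 10 members, 1 panel per gene, in the 3 libraries of each of 4 groups, with the group mean as a line and the SD as a bar. In all 10 panels the highest point is 4-month Gde2KO library 3, and both 19-month groups lie below both 4-month groups.

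Without Gde2KO library 3, the median log2 fold change of the members at 4 months was 0.11, from 0.02 (mt-Nd5) to 0.19 (mt-Atp6), with adjusted p-values of 0.839 to 0.990, and the median over all genes was 0.04. The size factors also bear on these values. When every library was scaled to the same total, the median over all genes went from 0.11 to -0.02 and that of the members from 0.41 to 0.28, and all 10 remained positive.

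**Figure D3:**
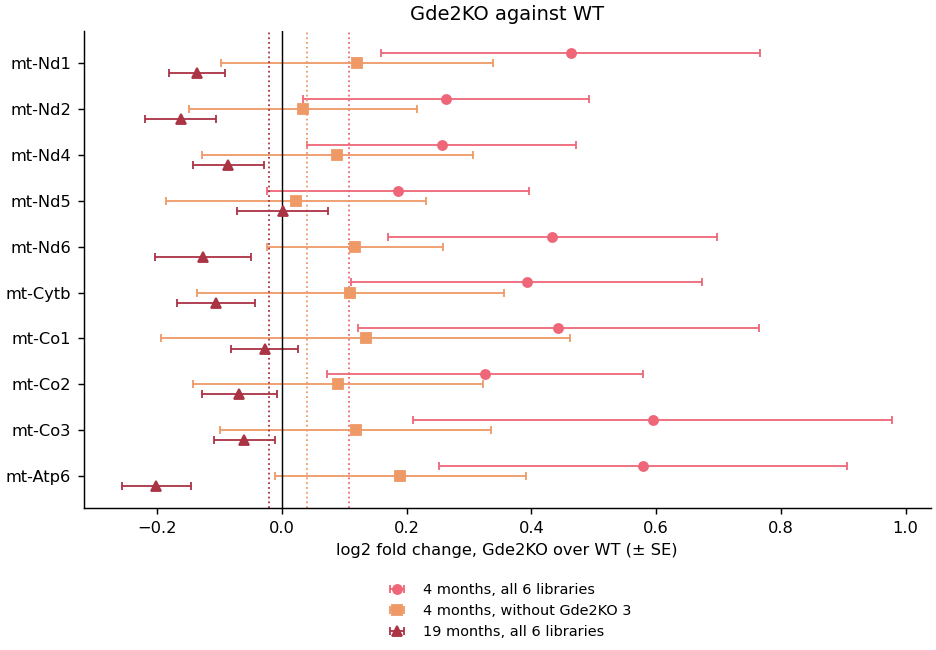
Log2 fold change of Gde2KO over WT (x axis) with its SE for the 10 members at 4 months, at 4 months without Gde2KO library 3, and at 19 months; dotted lines mark the median over all genes tested in the same fit. The 4-month values range from 0.19 to 0.59 and drop to 0.02 to 0.19 without library 3, and the 19-month values lie between -0.20 and 0.00.

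In 4-month Gde2KO library 3 every member had its highest value of the 12 libraries, but by unequal factors. Set against the mean of the other 5 libraries of that age, in normalized counts, the ratio was 2.82 for mt-Co3, 2.42 for mt-Atp6, 2.14 for mt-Nd1, 2.02 for mt-Nd6, 2.004 for mt-Co1 and 1.88 for mt-Cytb. It was 1.69 for mt-Co2, 1.63 for mt-Nd2, 1.47 for mt-Nd4 and 1.42 for mt-Nd5. The other 3 coding genes spanned a wider range, with 3.22 for mt-Nd3, 2.24 for mt-Atp8 and 1.44 for mt-Nd4l. Neighbours on the chromosome therefore differed, mt-Nd3 at 3.22 being next but for a transfer RNA to mt-Nd4l at 1.44. The members' median ratio was 1.94, where the median over 19035 genes was 1.13 and 19.0% of them reached 1.5.

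Within the members' summed TPM, which does not depend on the size factors, mt-Co3 made up 19.0% in library 3 and 13.2% to 14.99% in the other 11 libraries. mt-Atp6 made up 14.1% against 10.3% to 12.5%, mt-Nd4 4.22% against 5.64% to 6.03%, mt-Nd5 2.42% against 2.80% to 3.69% and mt-Nd2 4.11% against 4.44% to 5.51%. mt-Co2 made up 15.3% against 17.7% to 19.0%, before its nuclear copy is counted. mt-Nd6 was the member least displaced, with 4.01% in library 3 and 3.81% to 4.09% in the other 4-month libraries.

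The nuclear genes of the same complexes had ratios like those of the members in library 3. Of 73 nuclear genes of complexes I, III, IV and V, 65 reached 1.5 and the median was 1.95. By complex the median was 1.93 over 36 genes of complex I, 1.84 over 9 of complex III, 2.14 over 11 of complex IV and 1.96 over 17 of complex V. The 58 nuclear genes for mitochondrial transcription, RNA processing, translation and biogenesis had a median of 1.27, and 9 of them reached 1.5. Marker sums of neurons (245335 normalized counts against 168920 to 215060 in the other libraries), oligodendrocytes (142570 against 74552 to 137654) and microglia (6766 against 4077 to 5669) were highest in library 3 too. As ratios to the other 5 libraries, however, the marker medians were 1.20 for neurons, 1.13 for oligodendrocytes and 1.48 for microglia, against 1.13 over all genes. The sums of library 3 for astrocytes, endothelial cells, blood, choroid plexus, striatum and hippocampus lay inside the range of the other 11 libraries. Its total of normalized counts was 1.24 times the mean of the other 5 of its age. The part of these differences in the members' values was not tested.

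**Figure D4:**
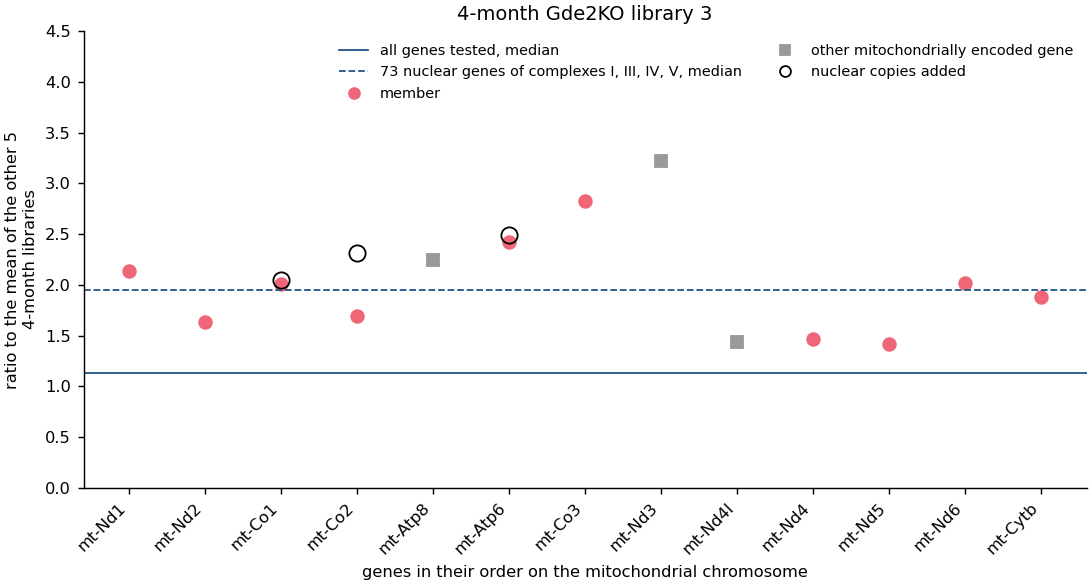
Normalized counts in 4-month Gde2KO library 3 divided by the mean of the other 5 libraries of that age (y axis), for the 13 protein-coding genes in their order on chromosome M; lines give the median over all genes tested (1.13) and over 73 nuclear respiratory genes (1.95). Open circles add the nuclear copies, which moves mt-Co2 from 1.69 to 2.32 and leaves the other members within 0.1.

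Library 3 also stood apart in its values on nuclear copies of mitochondrial sequence. In the reference, 18 nuclear transcripts align to a coding gene of chromosome M at 90% identity or more over 100 bases or more, 7 of them side by side at 1:24611535-24616197 on GRCm38. Gm28661, identical to mt-Co2 over 681 bases, had 114809 normalized counts in library 3 and at most 25.8 in the other 11 libraries, so it held 27.0% of the pair's sum of 425019 there. Gm29216, which matches mt-Co1 over 483 bases at 99.8% identity, had 23872 against at most 69.5. Gm10925, identical to mt-Atp6 over 678 bases, had 8225 against at most 0.0071, and Gm28437, identical to mt-Co3 over 783 bases, had 52.2 and was listed at 0 elsewhere. Gm28439 and Gm10222, identical to mt-Nd4 over 876 bases and to mt-Nd4l over 294, were listed at 0 in all 12 libraries. All copies together made up 3.88% of the summed mitochondrial coding genes and copies in library 3, and 0.00661% to 0.0165% in the others.

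The ends of mt-Co2 and mt-Atp6 and of their copies are printed because the annotated transcripts differ there alone. Capitals mark the bases that the copy's annotated transcript lacks.

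mt-Co2 at M:7673-7696, plus strand: aactgatctgcttcaataattTAA

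Gm28661: aactgatctgcttcaataatt

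mt-Atp6 at M:8584-8607, plus strand: ctatatctacatgataatacaTAA

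Gm10925: ctatatctacatgataataca

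With copies added to the member they align to, mt-Co2 had 425038 normalized counts in library 3 and its ratio to the other 5 became 2.32, mt-Atp6 went from 2.42 to 2.49 and mt-Co1 from 2.004 to 2.047. The members' median log2 fold change at 4 months became 0.44, with 0 called. A read of the shared bases cannot be told apart between a copy and its gene.

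At 19 months 9 of 10 members had a lower mean log2 value in Gde2KO than in WT, by small amounts, and none passed the test. Their median log2 fold change was -0.10, from -0.20 (mt-Atp6) to 0.00 (mt-Nd5). Over 18583 genes the median was -0.02, and 44.6% were positive. The members' adjusted p-values (limma) were 0.582 to 0.998, with 0 of 10 called against 0.0969% of all genes tested. At an unadjusted p under 0.05 were 3 members and 1285 of the 18583 genes. Gde2KO libraries lay wholly below WT libraries for 2 members, mt-Nd1 and mt-Atp6, against 8.32% of all genes tested.

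mt-Atp6 had 86814, 82133 and 82209 normalized counts in WT and 67690, 73419 and 77600 in Gde2KO, a log2 fold change of -0.20 ± 0.06 SE (adjusted p = 0.582, limma). The lowest value is that of Gde2KO A, the shallowest library. mt-Nd1 had 119161, 115172 and 116578 in WT and 103733, 103360 and 112430 in Gde2KO, a log2 fold change of -0.14 ± 0.04. mt-Nd2 had 71565, 65878 and 68956 in WT and 60293, 58028 and 66301 in Gde2KO, a log2 fold change of -0.16 ± 0.06. Its groups overlapped by 1 library, Gde2KO C being above WT B.

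The other members lay closer together. mt-Cytb had 159321, 147579 and 147898 normalized counts in WT and 128555, 143654 and 151114 in Gde2KO, and mt-Co1 had 478987, 449989 and 477387 against 428010, 469191 and 483702, where the highest library is Gde2KO C. The log2 fold changes were -0.11 for mt-Cytb, -0.03 for mt-Co1, -0.07 for mt-Co2, -0.06 for mt-Co3, -0.09 for mt-Nd4 and -0.13 for mt-Nd6. Without the 2 libraries of low depth, WT A and Gde2KO A, the members' median was 0.00, with 5 above 0 and 5 below. Of the other coding genes, mt-Nd3 lay wholly below WT in Gde2KO and mt-Nd4l wholly above it, and neither was called.

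The difference between the genotype effects at both ages was tested in 1 model over all 12 libraries. All 10 members had a negative interaction, with a median of -0.48 on the log2 scale. Over 18731 genes the median was -0.15, and 34.8% had a positive interaction. Of the members 0 of 10 were called, against 0.048% of all genes. mt-Atp6 had the largest, -0.78 ± 0.35 SE (limma, adjusted p = 0.384), and mt-Nd5 the smallest, -0.19 ± 0.21. Without 4-month Gde2KO library 3 the median was -0.19 and that of all genes -0.08.

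Between ages, the members were lower at 19 months in both genotypes, and age, depth and any difference in library preparation between the ages cannot be told apart. In WT all 10 had lower values, by a median of -0.39 on the log2 scale. Over 18731 genes the median was -0.07, and 43.75% had a positive change. The 19-month libraries lay wholly below the 4-month libraries for 10 of 10 members, against 26.7% of all genes tested. None passed both the adjusted p and the log2 threshold of 0.721, against 13.7% of all genes that did, and 4 passed the adjusted p alone, against 28.2% of all genes. This fit holds all 12 libraries, so the spread of 4-month Gde2KO library 3 enters the p-values of WT too. Without that library the WT median stayed -0.39 and 0 members were called. At an unadjusted p under 0.05 (limma) were then 9 members instead of 4, and the adjusted p-values ran from 0.00137 to 0.296 instead of 0.0124 to 0.562.

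The 4 members that passed the adjusted p alone, in the fit of all 12 libraries, are mt-Nd6, mt-Nd5, mt-Nd2 and mt-Nd4. mt-Nd6 had 25794, 22418 and 26398 normalized counts in 4-month WT and 16739, 14300 and 15029 in 19-month WT, a log2 change of -0.69 ± 0.21 SE (adjusted p = 0.0376). mt-Nd5 had 128722, 121510 and 144307 at 4 months and 88636, 77158 and 84096 at 19 months, a log2 change of -0.66 ± 0.15 (adjusted p = 0.0124). mt-Nd2 and mt-Nd4 had changes of -0.45 (adjusted p = 0.0776) and -0.38 (adjusted p = 0.0897). The fifth complex I gene, mt-Nd1, had -0.36 (adjusted p = 0.282). The complex IV genes had -0.20 for mt-Co1, -0.37 for mt-Co2 and -0.30 for mt-Co3, with adjusted p-values of 0.562, 0.173 and 0.501. mt-Cytb was at -0.43 (SE 0.205) and mt-Atp6 at -0.41 (SE 0.248). Both changes were larger in size than that of mt-Nd4 (SE 0.147), and so were their SEs. The 4 are thus not the members of largest change.

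Some marker genes of other cells and regions were also called between ages. Over all genes tested 13.7% were called in WT and 11.9% in Gde2KO. In WT 4 of 5 blood markers were called higher at 19 months (median log2 change 1.59), and 3 of 6 hippocampal (median -1.89), 2 of 5 oligodendrocyte, 1 of 5 astrocyte and 1 of 5 choroid plexus markers lower, with 1 of 5 endothelial markers higher. In Gde2KO 2 of 5 oligodendrocyte markers and 1 of 5 each of astrocyte, microglia and endothelial markers were called lower, and 0 of the blood, hippocampal, striatal, choroid plexus and neuronal markers were called. Their part in the members' values was not tested.

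In Gde2KO the 19-month libraries also lay wholly below the 4-month libraries for 10 of 10 members, against 29.9% of all genes tested. Of the members 8 were called and all 8 fell, against 11.9% of all genes called. Over all genes called the split was 478 higher and 1746 lower, and 863 higher and 796 lower after scaling to equal library totals, where 4 members were called. The members' median change was -0.90 where that of all genes was -0.21. mt-Nd6 fell most, by 1.26 on the log2 scale (SE 0.21, adjusted p = 0.00423), from 27348, 26466 and 51934 normalized counts to 12722, 14635 and 14830. mt-Atp6 fell by 1.19 (SE 0.25, adjusted p = 0.0107), from 128803, 124815 and 284924 to 67690, 73419 and 77600.

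The other called members were mt-Nd1, mt-Co3, mt-Cytb, mt-Nd2, mt-Nd5 and mt-Co2, with log2 changes of -0.96, -0.95, -0.93, -0.87, -0.84 and -0.76. mt-Nd4 had -0.72 (adjusted p = 0.00981), just short of the fold threshold, and mt-Co1 -0.67 (adjusted p = 0.0525). Leaving out 4-month library 3 changed these calls. Without it 2 members were called, mt-Nd6 (fell by 0.94) and mt-Atp6 (fell by 0.80), and the median was -0.63 against -0.14 over all genes. Whether the change with age differs between genotypes is the interaction given above, in which no member was called. The share of mt-Nd6 in the members' summed TPM was 3.81% to 4.09% over the 6 libraries of 4 months and 2.94% to 3.25% over the 6 of 19 months, without overlap. The share of mt-Co1 was 17.8% to 18.4% at 4 months and 19.7% to 21.4% at 19 months, also without overlap.

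**Figure D5:**
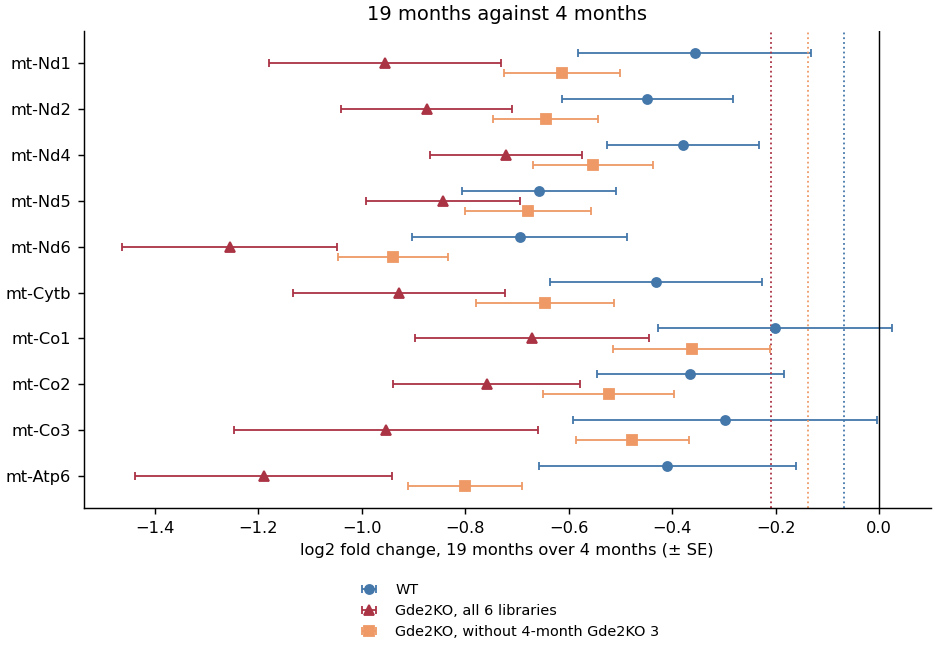
Log2 fold change of 19 months over 4 months (x axis) with its SE for the 10 members in WT, in Gde2KO, and in Gde2KO without 4-month library 3; dotted lines mark the median over all genes tested. All values are below 0, with medians of -0.39 in WT, -0.90 in Gde2KO and -0.63 in Gde2KO without library 3.

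Nuclear genes of the respiratory complexes were taken from a list. At 4 months all 73 genes of complexes I, III, IV and V had a positive log2 fold change of Gde2KO over WT. Their median was 0.37, where 63.2% of all genes were positive with a median of 0.11. Of the 73, 0 were called and 0 had an unadjusted p under 0.05, against 2025 of 19035 genes at that p. Without library 3, in which 65 of the 73 had a ratio of at least 1.5, 58 were positive with a median of 0.07 against 0.04 over all genes. In complex I, Ndufv1 and Ndufs1 (core subunits) had log2 fold changes of 0.32 and 0.24. Cox4i1, a subunit of cytochrome c oxidase, had 0.43 and Atp5b, the catalytic beta subunit of ATP synthase, had 0.20. The furthest from 0 in each complex were Ndufb4 (0.64), Uqcrh (0.52), Cox7a2 (0.55) and Atp5l (0.49), with adjusted p-values of 0.478, 0.516, 0.503 and 0.524. At 19 months 66 of 73 were negative with a median of -0.08, and 0 were called. Of all genes 44.6% were positive there, with a median of -0.02. This list was not refitted without the 2 libraries of low depth. At an unadjusted p under 0.05 were 9 of the 73 and 1285 of 18583 genes.

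Between ages the same 73 genes had a median log2 change of -0.30 in WT, with 2 called, both lower, against 13.7% of all genes called. They are Cox7c (fell by 0.87) and Usmg5 (fell by 0.89), small subunits of cytochrome c oxidase and ATP synthase. In Gde2KO the median was -0.78, where that of all genes was -0.21, with 42 called lower and 0 higher, against 1746 lower and 478 higher of 18731 genes. Without 4-month library 3 the count called lower was 7 and the median -0.45, and with equal library totals they were 22 and -0.57. These checks of the list were chosen after seeing the data. The 4 genes of complex II, which has no mitochondrially encoded subunit, had medians of 0.32 at 4 months and -0.03 at 19 months for Gde2KO over WT, and -0.15 in WT and -0.57 in Gde2KO for age, with 0 called in these 4 comparisons.

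The 58 nuclear genes for expression and biogenesis of mitochondria had smaller median values. For Gde2KO over WT, 0 were called at either age, and their medians were 0.15 at 4 months and -0.02 at 19 months. At an unadjusted p under 0.05 were 3 at 4 months and 0 at 19 months. Over all genes these counts were 2025 of 19035 and 1285 of 18583. By list the medians at 4 months were 0.18 over 16 genes of transcription and replication, 0.14 over 21 of RNA processing and decay, 0.10 over 12 of translation and 0.16 over 9 regulators of biogenesis. Polrmt, the mitochondrial RNA polymerase, had 0.09, Tfam, which packages the DNA and starts transcription, 0.15, and Polg, the DNA polymerase, 0.01. Lrpprc, which with Slirp protects mitochondrial messages, had -0.05 and Slirp 0.47. Ppargc1a, the coactivator of mitochondrial biogenesis, had 0.16, and the largest value of the 4 lists was 0.72 for Fastkd5, which acts in processing of non-canonical junctions (adjusted p = 0.463). Between ages, 0 of 58 were called in WT, against 13.7% of all genes tested. In Gde2KO 3 were called, against 11.9% of all genes tested. These were Tefm (fell by 0.79), Slirp (fell by 0.99) and Hsd17b10 (fell by 0.93). They act in transcript elongation, message stability and transfer RNA processing, and in WT their log2 changes were -0.55, -0.52 and -0.69. The calls of these 58 genes without 4-month library 3 were not examined.

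Over the 12 libraries each member followed the mean log2 value of all 10, which includes it, with Pearson's r from 0.948 (mt-Nd5) to 0.997 (mt-Cytb). Of 14216 nuclear genes whose mean reached 50 normalized counts and that were above 0 throughout, the 10 most like the members' mean were Rps14, Ndufaf5, Ndufa13, Atpif1, Ndufb3, Rpl37a, Naa38, Ndufa7, Cfdp1 and Rnf7, with r from 0.992 to 0.987. After group means were removed r was 0.984 to 0.954, and without 4-month Gde2KO library 3 it was 0.985 to 0.969. No r was computed with both removed. The SD of the members' mean log2 value within a group was 0.506 in 4-month Gde2KO and 0.0609 to 0.115 in the other groups. Ndufa13, Ndufb3 and Ndufa7 encode complex I subunits, Ndufaf5 a complex I assembly factor, Atpif1 the inhibitor of ATP synthase, and Rps14 and Rpl37a cytosolic ribosomal proteins. The points share the libraries' size factors, and r is a description over 12 libraries. Rps14 had 27399 normalized counts in library 3 against 9143 to 11785 in the other libraries of 4 months and 6452 to 7485 at 19 months. It was picked by this correlation, so an arrangement like that of the members follows from the choice.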

How the data were processed

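Paired-end reads of polyA RNA from 12 cortex libraries were pseudoaligned by the authors to the GRCm38 transcriptome with Kallisto and normalized in Sleuth (versions not given in the sources used here). The authors deposited 2 tables of signal values for 118489 transcripts, estimated counts divided by a size factor per library, and TPM divided in the same way. Values were summed per gene, leaving out 1673 transcripts without a gene (0.541% to 0.605% of a library). Only 47.0% to 62.9% of genes had whole reads within 0.01, and no count model was run. No pair of libraries shared identical values (0%).

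limma 3.58.1 in R 4.3.3 was fitted with an intensity trend to log2(normalized count + 0.5) of all genes with 5 normalized counts in 47% of the libraries, per age, and over 12 libraries for the interaction and for age. Fold changes on this scale understate those of low genes. A call required p below 0.1 after Benjamini-Hochberg adjustment together with a change of more than 0.5 on the natural-log scale (0.721 on the log2 scale). The interaction needed only the former. The statistics were tested on simulated data that gave every gene the same dispersion and held no library like 4-month Gde2KO library 3. That simulation therefore cannot show how the statistics behave with such a library. The libraries are labelled as separate samples, and p-values measure the spread between them. The members, the lists of nuclear and marker genes and the tests were chosen with earlier results of these data known. The genes named are the members, the other mitochondrial coding genes, Gdpd5, called list genes, for each list of nuclear genes those of highest mean or largest change, nuclear copies of highest value, and the 10 genes most correlated with the members. Of these, the text gives a selection from the lists. A withheld item is not reported here. Nuclear copies were found with BLAST+ 2.17.0 between transcripts of GENCODE vM21. The ribosomal RNAs of chromosome M were not analysed here. Tables were made in python 3.11.15 with numpy 2.4.6 and pandas 2.3.3, and plots with matplotlib 3.10.9. The alternatives were other pseudocounts, filters, scalings, TPM, variance models, library weights, copies added, a block on replicate number, and libraries left out.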

Additional observations from a re-analysis of the deposited data

Results flagged for a closer look

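Values on nuclear copies of mitochondrial genes lie outside the main measurement, and 6 copies had a value in 4-month Gde2KO library 3 above the level of every WT library. Gm28661 was at 114809 normalized counts, Gm29216 at 23872, Gm10925 at 8225 and Gm28437 at 52.2. Gm13340, a copy of mt-Co1, was at 159 and Gm11410, a copy of mt-Cytb, at 4.83, against highest WT values of 97.0 and 2.16. For the first 4 the highest WT values were 25.8 for Gm28661, 69.5 for Gm29216 and 0.0071 for Gm10925, and Gm28437 was listed at 0 in WT. The other 2 Gde2KO libraries of 4 months held at most 0.161 of Gm28661 and 48.0 of Gm29216. With 1 library showing them, no difference between genotypes can be drawn from these values.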

How the results depend on the processing

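At 4 months, 0 members were called and all 10 kept a positive sign under all 21 alternatives. Their medians were 0.28 to 0.44, and 0.25 with the library weights, which did not converge. With 1 library left out the medians were 0.11 to 0.59, lowest without Gde2KO library 3. With the replicate number as a block, 0 members were called, the median stayed 0.41 and 21 genes were called instead of 24. Deviations of same-numbered WT and Gde2KO libraries had correlations of 0.0596, 0.0071 and -0.0477, and those of the other pairs ran from -0.1437 to 0.1113. Whether same-numbered libraries shared a litter or a preparation cannot be told from these values. Over all genes, calls numbered 12 without a filter or without a trend, 1510 without WT library 3, 5 without Gde2KO library 3 and 10 to 15 without any 1 of the other 4. Library weights gave 2934, but the weights did not converge in any fit that held 4-month libraries (Gde2KO library 1 received 58.5), so those calls are void.

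At 19 months 0 members were called under all alternatives. The median was -0.0056 with library weights, which converged there, and 0.0001 without the 2 libraries of low depth, and -0.1493 to -0.0483 with 1 library left out. With weights mt-Nd4, mt-Co1 and mt-Co2 changed sign to 0.0020, 0.0555 and 0.0223. Without both libraries of low depth mt-Nd6, mt-Co1, mt-Co2 and mt-Co3 changed sign to 0.0071, 0.0396, 0.0284 and 0.0042, and with 1 library left out mt-Nd5 ran from -0.0574 to 0.069 and mt-Co1 from -0.0644 to 0.0238 (positive without Gde2KO A). Over all genes 7 to 77 were called instead of 18, among them 9 without WT A and 45 without Gde2KO B. The interaction's median ran from -0.6697 to -0.1871 with 1 library left out, and 2029 genes were called without 4-month WT library 3 instead of 9 (6 to 15 without any other). With the void weights 5 members were called and mt-Nd5 changed sign to 0.0480.

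For age in WT, members called were 4 at the adjusted p alone, 1 without the libraries of low depth (mt-Nd6) and 0 to 1 with 1 library left out (1 without 4-month WT library 2 or 19-month WT A). Over all genes 2565 were called, 1525 to 3096 with 1 library left out (1569 and 1525 without 4-month WT libraries 1 and 2) and 1692 to 5279 under the other alternatives. In Gde2KO the members called were 4 with equal totals and 5 with equal totals off chromosome M or upper-quartile scaling. They were 2 with the void weights and 2 to 10 with 1 library left out (2 without 4-month library 3). Over all genes 1096 (without that library) to 2851 were called with 1 library left out and 1531 to 6053 under the other alternatives. On the TPM scale, which divides by length, the members' share was 11.7%, 13.7%, 10.5% and 10.02% in 4-month WT, 4-month Gde2KO, 19-month WT and 19-month Gde2KO. The cause of the changes was not tested. Each group holds 3 libraries, and at 19 months WT A and Gde2KO A were of low depth.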
